A study of Mus musculus with 6 samples.

Results

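The 48 genes described here encode the proteins that copy DNA in S phase and the regulators that open it. They were picked by name (Mcm2 to Mcm7, Mcm10, the GINS subunits, the replicative polymerases, the clamp and its loader, RPA, the suppliers of deoxynucleotides, cyclin E, *E2f1*, *E2f2* and the chromatin factors of the fork). All 48 were listed in the table of gene counts. All 48 held at least 10 counts in at least 3 libraries and were tested, among 46078 genes listed and 14828 tested.

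RNA came from C2C12 cells, an immortalized mouse myoblast line that leaves the cell cycle and fuses into myotubes when serum is withdrawn. Cells lacking *Hnrnpa2b1* (KO), an RNA-binding protein, were compared with *Hnrnpa2b1* wild type cells (WT). Per the labels, both genotypes had been differentiated for 2 days by withdrawing serum and adding ITS, a supplement of insulin, transferrin and selenium. Each gave 3 libraries of total RNA, numbered KO1, KO2 and KO3 or WT1, WT2 and WT3. According to the methods, KO was made with Cas9 and 1 guide, with puromycin selection, and KO and WT lines were isolated as clones. Which clone gave which library is not stated in the sources used here, so effects of a clone and of the genotype cannot be told apart where a clone stands apart.

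The libraries held 33605258 to 40558740 counted reads. *Hnrnpa2b1* transcripts were at 159, 195 and 249 CPM (counts scaled to library size) in KO1, KO2 and KO3 and at 225, 229 and 252 CPM in WT1, WT2 and WT3, so this transcript did not separate the genotypes (log2 fold change −0.23, SE 0.18, edgeR adjusted p = 0.381). The KO libraries also differed among themselves in muscle genes. The summed level of 9 muscle markers (*Myod1*, *Myog*, *Acta1* and others) stood at 6089 TPM (a StringTie level scaled for transcript length and library size) in KO1, against 3219 in KO2 and 3176 in KO3, with 4031 to 5132 TPM in WT. *Acta1*, skeletal muscle actin, made up 3005 of the 6089 TPM in KO1, and without it the other 8 markers summed to 3084 TPM in KO1, 2057 in KO2, 1937 in KO3 and 2551 to 3096 in WT. Single markers went both ways, with KO1 above every WT library for 5 of the 9 (*Myod1*, *Myog*, *Cdh15*, *Acta1* and *Tnnt1*) and below every one for 2 (*Myf5* and *Myh3*). Markers of epithelial and endothelial cells were below 1 TPM in all 6 libraries, and the 4 adipocyte markers were at 0. Of 3 markers of reserve or satellite cells, *Pax7* was at 2.26, 3.44 and 2.57 TPM in KO and 1.26, 0.536 and 1.21 TPM in WT and rose in counts (log2 fold change 1.52, edgeR adjusted p = 0.0223), *Spry1* fell (−1.22, edgeR adjusted p = 0.0130) and *Calcr* was near 0. Their part in the replication genes was not tested. The 6 macrophage and leukocyte markers summed to 1.30 to 2.14 TPM in KO and 1.01 to 1.27 TPM in WT, and 5 of the 6 stayed below 1 TPM.

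Replication begins in G1, when the origin recognition complex with Cdc6 and Cdt1 loads the Mcm2-7 helicase on DNA. Cyclin E kinase and E2F transcription factors then carry the cell into S phase, where Cdc45 and GINS activate the helicase and the polymerases extend primed strands. These genes are known to be switched off when myoblasts withdraw from the cell cycle, and E2F factors bind the promoters of many of them.

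As a group, the replication genes lay higher in KO. Of the 48, 19 rose in KO (39.6%), 2 fell (4.17%) and 27 did not pass the test, an edgeR quasi-likelihood test with Benjamini-Hochberg adjusted p under 0.05 over all genes tested. Without WT1 6 of the 48 rose, without WT3 7 and without KO1 29. Over all genes, 3361 were called in either direction with all 6 libraries, 933 without WT1, 1288 without WT3 and 4712 without KO1. Of all tested genes, 22.7% were called in either direction, 12.1% higher and 10.6% lower in KO. The median log2 fold change of the 48 was 0.62, or 1.53-fold, beside 0.03 over all tested genes, and 35 of the 48 had a positive value. Paired values in parentheses after a gene are its log2 fold change and edgeR adjusted p, and a lone value after a stated log2 fold change is that p. Every KO library lay above every WT library for 25 of the 48 (52.1%, beside 22.7% of all tested genes), and every KO library lay below every WT library for 5 (10.4%, beside 21.6%). The exact two-sided permutation test of single genes gave 0.1 for these 30 genes, the smallest p that 3 libraries against 3 allow. Groups without overlap fix that value in advance, so it adds nothing to these counts. In bulk RNA, more cells in S phase and more of these transcripts per cell cannot be told apart.

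The 3 KO libraries did not share this rise equally. By the median difference of the 48 genes from the WT mean, in log2 CPM, KO1 stood at 0.20, KO2 at 0.78 and KO3 at 0.65, while the WT libraries lay at −0.057, −0.014 and 0.073. KO1 was the lowest of the KO libraries for 36 of the 48 genes (75.0%), beside 34.2% of all tested genes. KO2 held the highest value of the 6 libraries for 27 of the 48, KO3 for 7 and KO1 for 3. KO1 also had the highest summed muscle marker level of the 6 libraries with *Acta1* and, among the KO libraries, also without it, and the part of this in the replication genes was not tested. The 29 that rose without KO1 held the 19, and the median log2 fold change of the 48 was then 0.72.

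**Figure D1:**
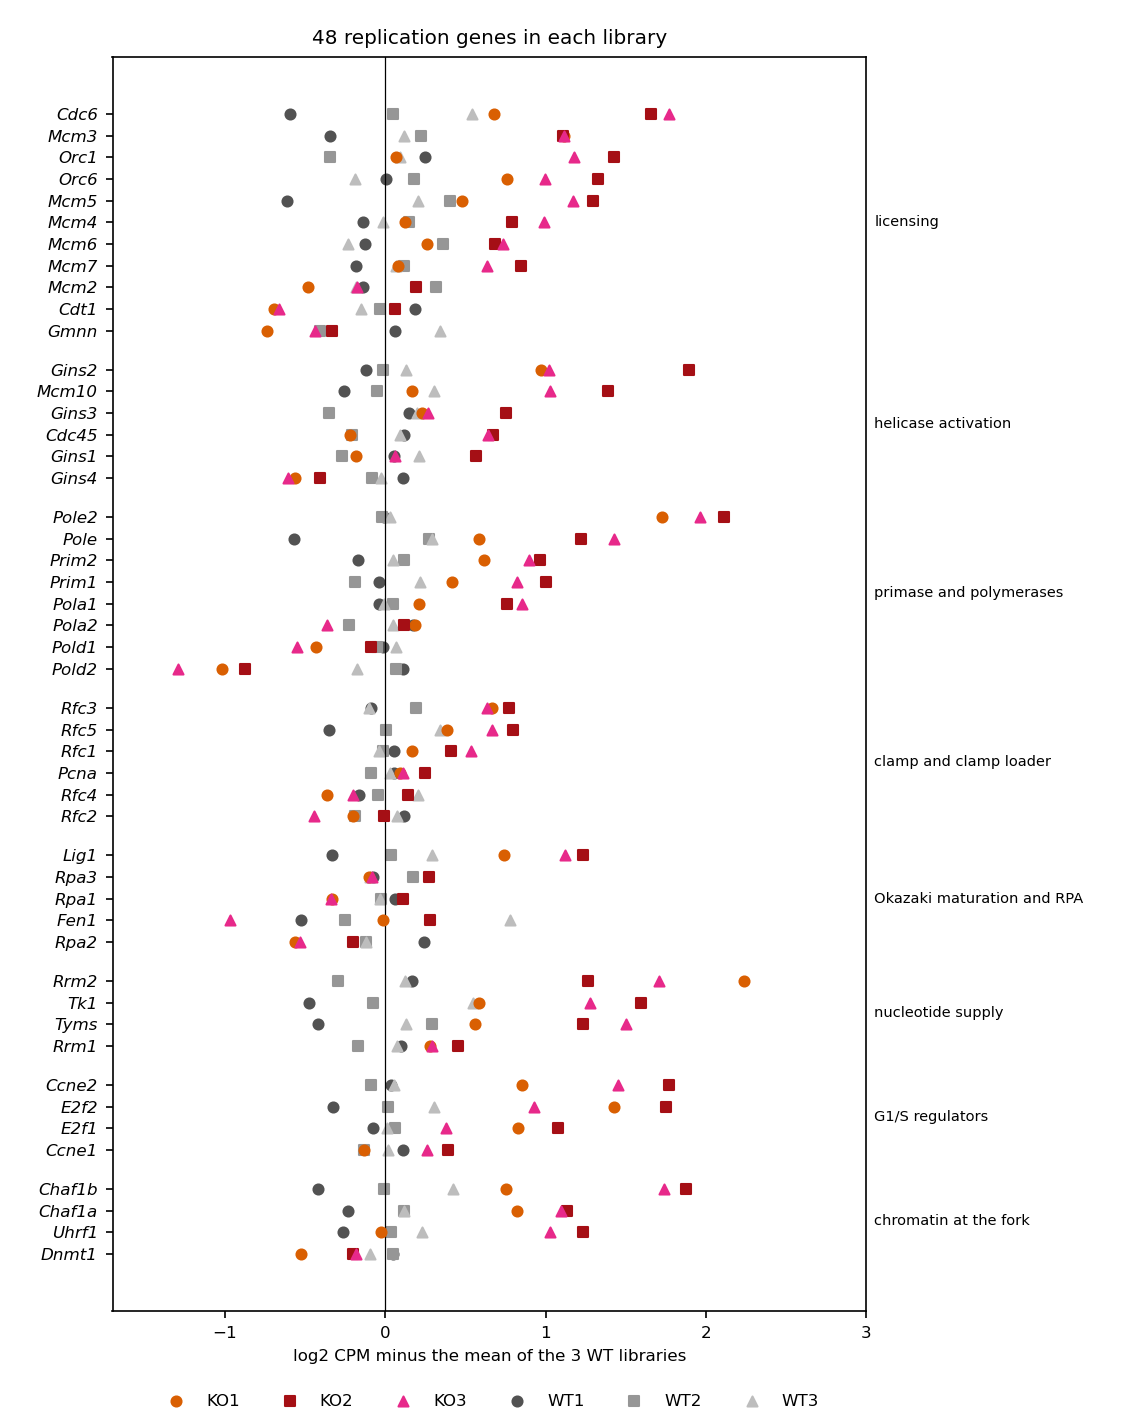
Each row is one of the 48 genes and each point one library, plotted as log2 CPM minus the mean log2 CPM of the 3 WT libraries, with the genes grouped by role. KO2 and KO3 lie to the right for most genes and KO1 lies between them and WT for many, while *Pold2* and *Gins4* lie to the left in all 3 KO libraries.

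What the promoters of these genes share was read from RefSeq promoter sequences of mouse build GRCm38.p6, each reaching from 250 bases before a transcription start to 50 after it. Of the 48 genes, 39 had an entry there, with 48 promoters in all. *Ccne2*, *Gins1*, *Gins2*, *Gins4*, *Gmnn*, *Mcm4*, *Pole*, *Prim2* and *Rfc2* had none in the table used. The letters searched were TTTGGCGC, TTTCGCGC, TTTCCCGC and TTTGCCGC on either strand, strings that match the known E2F site and can overlap each other. At least 1 of the 4 strings stood in 16 of the 48 promoters (33.3%), beside 744 of all 32851 promoters searched (2.26%). The CCAAT string, the core of the NF-Y site, stood in 60.4% of the replication promoters and 37.4% of all, and TTTGAA, the core of the CHR element, in 14.6% and 17.9%. The 16 genes with an E2F string held 7 of the genes that rose and 0 that fell, with a median log2 fold change of 0.76. The 23 without one held 8 that rose and 1 that fell, with a median of 0.38. Of all tested genes, 12.1% were called higher and 10.6% lower in KO. A match of letters shows no binding of a factor, and the difference between the genes with and without a string was not tested.

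The stretches printed here run 5′ to 3′ along the gene, each from 160 bases before the start to 10 after it, with E2F strings in capitals. The first 5 show strings in genes of 3 roles (licensing, polymerase and clamp loader), and that of *Rrm2*, which rose strongly in both kinds of deposited values, shows a promoter without one. In *Mcm5* and *Mcm6* 2 strings of opposite strands overlap into 1 longer run, and in *Rfc3* 1 string ends just before the start and the other begins at it. The stretches lie at chr11:98907991-98908160 (plus strand), chr8:75109349-75109518 (plus), chr1:128359696-128359865 (minus), chrX:93632146-93632315 (minus), chr5:151651199-151651368 (minus) and chr12:24708094-24708263 (plus). The starts are those of RefSeq, and for *Cdc6* this start lies 350 bases inside the gene as the deposited coordinates give it, against at most 41 bases between the 2 starts for the other 5.
Cdc6: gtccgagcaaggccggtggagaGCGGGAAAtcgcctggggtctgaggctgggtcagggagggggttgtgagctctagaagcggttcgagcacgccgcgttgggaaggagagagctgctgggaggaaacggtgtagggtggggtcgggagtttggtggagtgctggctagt
Mcm5: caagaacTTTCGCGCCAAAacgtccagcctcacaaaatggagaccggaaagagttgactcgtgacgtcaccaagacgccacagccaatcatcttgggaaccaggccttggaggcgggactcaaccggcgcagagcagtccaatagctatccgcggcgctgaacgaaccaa
Mcm6: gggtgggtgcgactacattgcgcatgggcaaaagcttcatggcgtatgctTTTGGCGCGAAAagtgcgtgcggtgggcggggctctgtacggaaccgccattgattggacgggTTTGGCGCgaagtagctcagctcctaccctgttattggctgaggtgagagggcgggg
Pola1: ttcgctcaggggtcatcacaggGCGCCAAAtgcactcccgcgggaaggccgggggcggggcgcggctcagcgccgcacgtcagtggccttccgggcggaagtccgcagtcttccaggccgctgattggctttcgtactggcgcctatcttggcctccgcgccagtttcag
Rfc3: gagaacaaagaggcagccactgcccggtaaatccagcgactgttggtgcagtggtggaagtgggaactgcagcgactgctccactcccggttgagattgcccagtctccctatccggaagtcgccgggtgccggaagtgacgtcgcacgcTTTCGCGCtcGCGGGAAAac
Rrm2: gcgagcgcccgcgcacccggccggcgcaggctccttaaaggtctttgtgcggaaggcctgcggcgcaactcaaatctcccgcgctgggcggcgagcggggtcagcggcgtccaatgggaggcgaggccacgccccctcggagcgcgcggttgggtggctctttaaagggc

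Origin licensing was represented by 11 genes, of which 3 rose (27.3%, beside 12.1% of all tested genes). The 11 had a median log2 fold change of 0.68. Without KO1 8 of the 11 rose, and without KO2, KO3, WT1 or WT3 2. None fell, beside 10.6% of all tested genes, and none did at an unadjusted p under 0.05 or with DESeq2 (0 of 11 each). *Cdc6* (ENSMUSG00000017499, chr11:98907801-98923940), the ATPase that loads the helicase, had 1.96, 3.92 and 4.25 CPM in KO1, KO2 and KO3 and 0.781, 1.25 and 1.78 CPM in WT1, WT2 and WT3. All KO libraries lay above WT, KO1 only just, and *Cdc6* rose by 1.41 on the log2 scale (SE 0.42, edgeR adjusted p = 0.0472). *Mcm3* (ENSMUSG00000041859, chr1:20802968-20820312), a helicase subunit, had 25.6, 25.4 and 25.5 CPM in KO and 9.26, 13.8 and 12.8 CPM in WT. Its KO libraries were nearly equal, and the rise of 1.09 (SE 0.18, edgeR adjusted p = 0.00644) held under all 14 alternative analyses. *Orc6* (ENSMUSG00000031697, chr8:85299632-85308278), the smallest subunit of the origin recognition complex, had 57.0, 84.5 and 67.0 CPM in KO and 33.8, 38.1 and 29.4 CPM in WT and rose by 1.04 (SE 0.18, edgeR adjusted p = 0.00756). Tested genes of the same 10 Mb of chromosome 8 had a median log2 fold change of 0.61, and with each region's median removed *Orc6* was at 0.43 and no longer passed (edgeR adjusted p = 0.118; the adjusted p ran from 2.47e-06 to 0.118 over all its alternatives, which use edgeR, DESeq2 or limma).

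The other helicase subunits pointed the same way except *Mcm2*, without passing the test. *Mcm5* was at 0.97 (edgeR adjusted p = 0.0581), with every KO library above WT, *Mcm4* at 0.68 (0.0669), *Mcm6* at 0.55 (0.0791), *Mcm7* at 0.55 (0.0870) and *Mcm2* at −0.15 (0.639). For *Mcm4*, *Mcm6* and *Mcm7* KO1 fell within the WT range and KO2 and KO3 above it, and these 3 genes and *Mcm5* passed once KO1 was left out. *Orc1*, the ATPase of the origin recognition complex, was at 1.05 with few reads (0.504, 1.37 and 1.15 CPM in KO, 0.579, 0.366 and 0.512 CPM in WT, edgeR adjusted p = 0.129). Both regulators of the loading step lay on the other side of zero, again within overlapping groups: *Cdt1*, the helicase loader, at −0.39 (0.293), and *Gmnn*, the geminin that inhibits Cdt1, at −0.53 (0.199).

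Of 6 genes of helicase activation 1 rose and 1 fell (16.7% each, beside 12.1% and 10.6% of all tested genes), and without WT1 0 of the 6 were called in the edgeR test, with 1 higher and 1 lower at an unadjusted p under 0.05. Among the 4 GINS subunits, which sit on Mcm2-7 as 1 complex, *Gins2* rose, *Gins4* fell, and *Gins3* (0.42, edgeR adjusted p = 0.203) and *Gins1* (0.17, 0.689) did not pass. *Gins4* (ENSMUSG00000031546, chr8:23226610-23237668) had 24.3, 27.0 and 23.5 CPM in KO and 38.6, 33.8 and 35.1 CPM in WT. No KO library reached the lowest WT library, and the fall was 0.52 (log2 fold change −0.52, SE 0.13, edgeR adjusted p = 0.0255). *Gins2* (ENSMUSG00000031821, chr8:120578633-120589304) was far less abundant in TPM (0.994 against 12.3 TPM for *Gins4*, means of KO), with 2.41, 4.60 and 2.49 CPM in KO and 1.10, 1.19 and 1.32 CPM in WT, and rose by 1.40 (SE 0.34, edgeR adjusted p = 0.0258). Of its exon bases, 67.32% are shared with *Gse1* on the opposite strand, and whether counting used strand is not given in the sources used here, so its value is uncertain. *Cdc45*, the partner of GINS in the active helicase (0.41, 0.279), and *Mcm10*, which triggers it (0.94, 0.0906), overlapped between genotypes. Both passed once KO1 was left out.

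Among primase and polymerases 5 of 8 genes rose and 1 fell (62.5% and 12.5%, beside 12.1% and 10.6% of all tested genes). Without WT1 or without WT3 1 of the 8 rose, and the median log2 fold change of 0.70 from counts was 0.095 over the 7 tested in log2(TPM + 1), where 1 rose. Primase makes the RNA primer and works in 1 complex with polymerase alpha, and *Prim2* (0.83, edgeR adjusted p = 0.0142), *Prim1* (0.76, 0.0349) and the catalytic *Pola1* (0.64, 0.0437) rose with KO libraries all above WT. *Pola2*, the fourth subunit of that complex, stood at −0.01 (0.977). The catalytic subunit of the leading strand polymerase, *Pole* (ENSMUSG00000007080, chr5:110286306-110337474), had 8.25, 12.8 and 14.8 CPM in KO and 3.67, 6.64 and 6.74 CPM in WT. Its rise was 1.08 (SE 0.31, edgeR adjusted p = 0.0418).

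Of polymerase delta, the lagging strand enzyme, 1 of the 2 subunits here fell. *Pold2* (ENSMUSG00000020471, chr11:5872180-5878292), its accessory subunit, had 39.2, 43.2 and 32.4 CPM in KO and 85.6, 82.9 and 70.1 CPM in WT. Every KO library was well below every WT library, with a fall of 1.06 (log2 fold change −1.06, SE 0.15, edgeR adjusted p = 0.00453) that held under all 14 alternatives. TPM also placed every KO library below every WT library, at 14.6, 17.2 and 15.5 in KO and 36.3, 36.0 and 27.3 in WT. *Pold1*, the catalytic subunit, was lower in all KO libraries but did not pass (−0.34, edgeR adjusted p = 0.184). The subunits *Pold3* (0.30, edgeR adjusted p = 0.16) and *Pold4* (0.53, 0.13), from outside the genes picked here, leaned the other way without passing. Every KO library lay above every WT library for *Pold3*, and the genotypes overlapped for *Pold4*. Both were named after their values had been seen.

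The 2 kinds of deposited values disagreed for *Pole2* (ENSMUSG00000020974, chr12:69201779-69228190), the second subunit of polymerase epsilon. Counts gave 4.92, 6.46 and 5.83 CPM in KO and 1.45, 1.43 and 1.48 CPM in WT, a rise of 1.98 (SE 0.24, edgeR adjusted p = 0.00258) that was the largest of the 48. TPM values were 3.70, 2.50 and 2.84 in KO and 2.97, 2.90 and 2.35 in WT, overlapping, with a difference of 0.09 in log2(TPM + 1) (limma adjusted p = 0.710). *Pole2* shares 8.5% of its exon bases with the predicted gene Gm49384 on the same strand, and the part of this in the disagreement was not tested. The rise of *Pole2* was thus seen in counts and not in TPM.

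**Figure D2:**
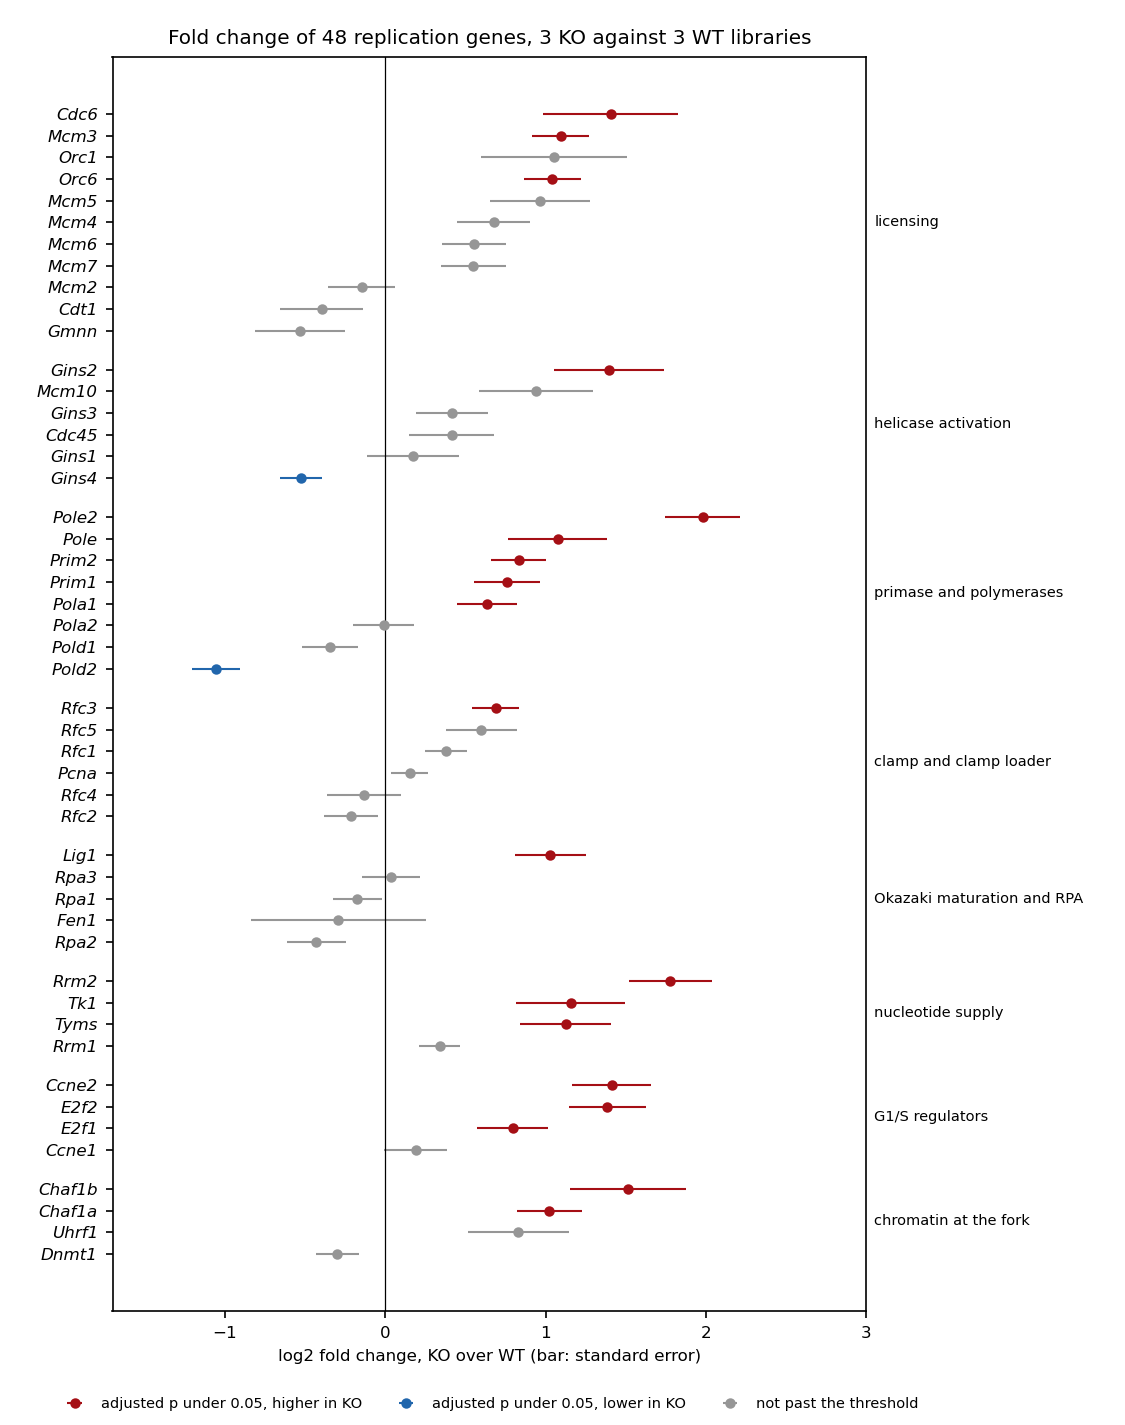
Points are the log2 fold changes of the 48 genes, KO over WT, from edgeR on counts, and bars are standard errors, with 3 libraries a genotype and colour for the call. Rises stand in every role, and the 2 falls are *Gins4* and *Pold2*.

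Of the clamp and its loader 1 of 6 genes rose (16.7%, beside 12.1% of all tested genes). Without WT1 or WT3 0 did in the edgeR test, with 2 higher at an unadjusted p under 0.05 in each. Without KO1 3 rose. *Pcna*, the ring that holds polymerases on DNA and the most abundant of this role in TPM, had 47.2, 52.6 and 47.8 CPM in KO and 45.9, 41.6 and 45.2 CPM in WT. The groups did not overlap, yet the difference was small (0.15, SE 0.12, edgeR adjusted p = 0.361). *Rfc3* (ENSMUSG00000033970, chr5:151642756-151651242), a loader subunit, had 21.6, 23.2 and 21.1 CPM in KO and 12.8, 15.5 and 12.6 CPM in WT and rose by 0.69 (SE 0.15, edgeR adjusted p = 0.0165). *Rfc5* (0.60, 0.0835) and *Rfc1* (0.38, 0.0693) were above WT in every KO library without passing, and *Rfc4* (−0.13, 0.701) and *Rfc2* (−0.21, 0.387) overlapped.

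In the role of joining and protecting the new strands only *Lig1* of 5 genes passed, beside 12.1% of all tested genes called higher. Without WT1 or WT2 0 of the 5 passed in the edgeR test, with 1 higher at an unadjusted p under 0.05 in each. *Lig1* (ENSMUSG00000056394, chr7:13277283-13311433), the ligase that seals Okazaki fragments, had 11.3, 15.9 and 14.7 CPM in KO and 5.35, 6.92 and 8.25 CPM in WT and rose by 1.03 (SE 0.22, edgeR adjusted p = 0.0171). The 3 subunits of RPA, which coats single-stranded DNA, did not pass: *Rpa3* was at 0.04 (0.900), *Rpa1* at −0.17 (0.429) and *Rpa2* at −0.43 (0.124), the last below WT in every KO library. *Rpa1* was the most abundant of them in TPM, with 70.2, 95.4 and 70.0 CPM in KO and 92.3, 86.9 and 86.5 CPM in WT. *Fen1*, the flap nuclease, had only 17, 26 and 9 counts in KO and 11, 13 and 32 in WT, and 84.19% of its exon bases are shared with genes on the opposite strand, *Tmem258* among them. Its value of −0.29 (SE 0.54, edgeR adjusted p = 0.722) is uncertain, and TPM gave the opposite sign (0.55 in log2(TPM + 1), limma adjusted p = 0.309).

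Of the 4 suppliers of deoxynucleotides 3 rose (75.0%, beside 12.1% of all tested genes). The 4 had a median log2 fold change of 1.14, close to the 1.09 of the G1/S regulators. This order turned without KO3 (1.02 and 1.18), without WT1 (0.94 and 0.99) and with the regional medians removed (0.96 and 1.05). Without KO2, KO3, WT1 or WT3, or with those medians removed, 1 of the 4 rose. *Rrm2* (ENSMUSG00000020649, chr12:24708241-24714146), the small subunit of ribonucleotide reductase, had 307, 156 and 212 CPM in KO and 73.0, 52.9 and 70.9 CPM in WT. The lowest KO library stood far above the highest WT library, and KO1 was the highest, unlike for most other genes here. *Rrm2* rose by 1.78 (SE 0.26, edgeR adjusted p = 0.00487), a call that held under all 14 alternatives, and its region of 10 Mb had a median of 0.48. Its partner *Rrm1*, the large subunit, was above WT in every KO library by a small and uncalled amount (0.34, 0.0873). *Tyms*, the thymidylate synthase, had 11.4, 18.3 and 22.04 CPM in KO and 5.79, 9.48 and 8.46 CPM in WT and rose by 1.13 (SE 0.28, edgeR adjusted p = 0.0280). *Tk1*, the thymidine kinase of S phase, had 8.37, 16.9 and 13.6 CPM in KO and 3.99, 5.27 and 8.14 CPM in WT and rose by 1.16 (SE 0.34, edgeR adjusted p = 0.0442), with KO1 barely above WT3.

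Among the regulators of the G1/S step 3 of 4 rose (75.0%, beside 12.1% of all tested genes). *E2f2* (ENSMUSG00000018983, chr4:136172394-136196057), an activating E2F factor, had 90.9, 114 and 64.3 CPM in KO and 27.0, 34.2 and 41.8 CPM in WT, without overlap. Its rise was 1.39 (SE 0.24, edgeR adjusted p = 0.00820). *E2f1* had 9.93, 11.8 and 7.28 CPM in KO and 5.29, 5.82 and 5.63 CPM in WT and rose by 0.79 (SE 0.22, edgeR adjusted p = 0.0378). *Ccne2* (ENSMUSG00000028212, chr4:11191351-11204779), a cyclin E, had 10.5, 19.9 and 16.0 CPM in KO and 5.96, 5.46 and 6.04 CPM in WT. The WT libraries were close to each other and all KO libraries higher, with a rise of 1.41 (SE 0.25, edgeR adjusted p = 0.00829). Of the exon bases of *Ccne2*, 17.42% are shared with *Ints8* on the opposite strand. The other cyclin E gene, *Ccne1*, overlapped between genotypes (0.19, 0.515). *E2f2* and *Ccne2* kept their calls under all 14 alternatives. In this role KO1 was not the lowest as a rule, with a median difference of 0.84 from WT, against 1.42 in KO2 and 0.65 in KO3.

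Of the chromatin factors of the fork 2 of 4 rose, beside 12.1% of all tested genes. Without WT1 or WT3 0 did in the edgeR test, with 2 and 3 higher at an unadjusted p under 0.05, and without KO2, KO3 or WT2 1 did. Both measured subunits of CAF-1, which lays histones on new DNA, rose. *Chaf1b* (ENSMUSG00000022945, chr16:93883901-93906115) had 4.11, 9.02 and 8.20 CPM in KO and 1.79, 2.41 and 3.26 CPM in WT and rose by 1.51 (SE 0.36, edgeR adjusted p = 0.0240). *Chaf1a* (ENSMUSG00000002835, chr17:56040416-56068026) had 8.23, 10.3 and 9.98 CPM in KO and 3.93, 5.03 and 5.04 CPM in WT and rose by 1.02 (SE 0.20, edgeR adjusted p = 0.0123), but 52.5% of its exon bases are shared with *Ubxn6* on the opposite strand. The pair that copies DNA methylation did not pass. *Uhrf1*, which finds hemimethylated sites, was at 0.83 (0.0912), with KO1 inside the WT range. *Dnmt1*, the maintenance methyltransferase, had 50.03, 62.6 and 63.5 CPM in KO and 74.6, 74.5 and 67.4 CPM in WT, lower in every KO library without passing (−0.30, SE 0.13, edgeR adjusted p = 0.140).

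**Figure D3:**
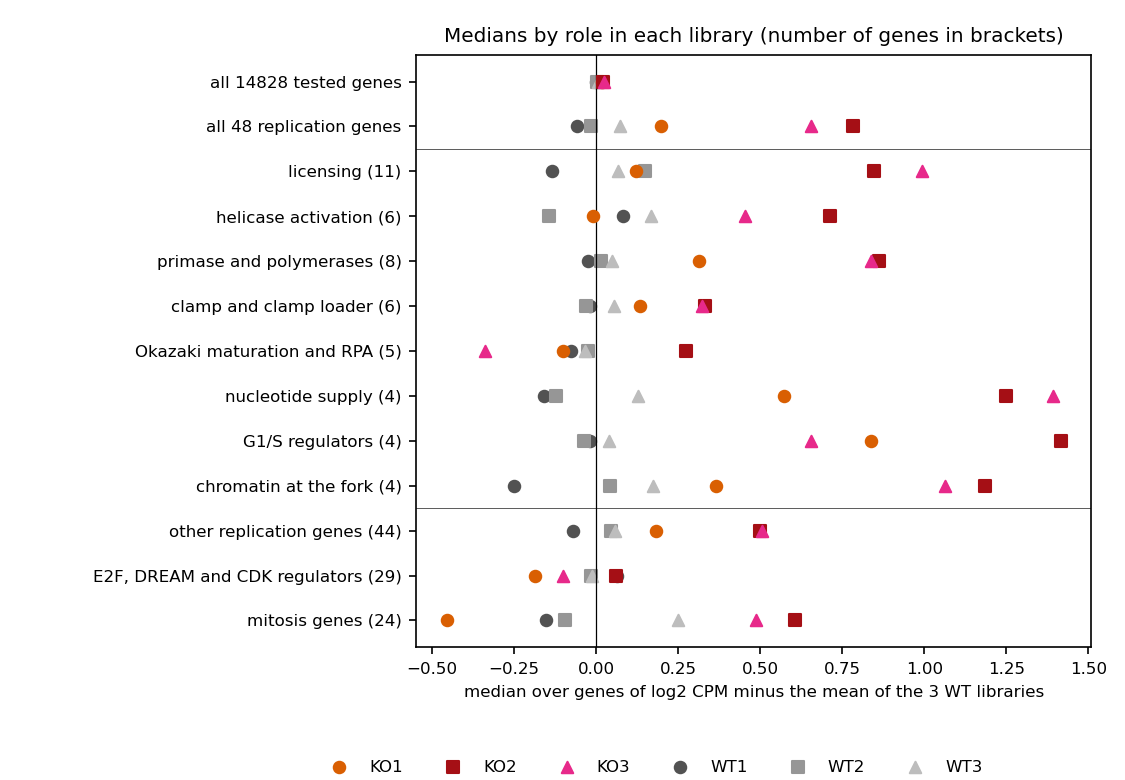
Points are medians over the genes of a role, in each library, of log2 CPM minus the mean of the 3 WT libraries, with all tested genes above and the genes outside the 48 below. Nucleotide supply, at 0.57, 1.25 and 1.39 in KO1, KO2 and KO3, and the G1/S regulators, at 0.84, 1.42 and 0.65, lie above WT in each KO library. So do primase and polymerases, the clamp with its loader and the chromatin factors, with KO1 at 0.31, 0.13 and 0.36. Okazaki maturation with RPA scatters around 0.

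How firmly the single calls stand differed. Over 14 alternative analyses, *Mcm3*, *Pold2*, *Rrm2*, *Ccne2* and *E2f2* were called in all. *Orc6* was called in 13, *Pole2*, *Prim2*, *Rfc3* and *Chaf1a* in 12 and *Lig1* in 11. The other 10 were called in 5 to 9, which for *Cdc6*, *Pole* and *Gins2*, too low to be tested in TPM, is out of 12. Leaving out WT1 kept 7 of the 21 calls, leaving out WT3 kept 8, WT2 11, KO2 12 and KO3 13, whereas leaving out KO1 kept all 21. Each of *Cdc6*, *Pole*, *Pola1*, *Prim1*, *Tk1* and *Chaf1b* lost its call without any 1 of KO2, KO3, WT1, WT2 and WT3. *Tyms* lost it without KO2, KO3, WT1 or WT3, *Gins2* and *E2f1* without KO2 or any WT library, and *Gins4* without KO3 or any WT library. *Lig1* lost it without WT1 or WT2, and *Chaf1a*, *Prim2* and *Rfc3* without WT1 or WT3. Their directions did not change. Over the alternatives the adjusted p (edgeR or DESeq2) ran from 0.00429 to 0.163 for *Cdc6*, the highest among them, and that of *Chaf1a* (edgeR, DESeq2 or limma) from 0.000258 to 0.0697.

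Levels between genes can be compared in TPM. In WT, *Pold2* was the most abundant of the 48 (33.2 ± 5.14 TPM, SD, n = 3), followed by *Pcna* (22.3 ± 1.13) and *Rrm2* (20.9 ± 3.09), which did not differ beyond their spread, and *Gins4* (17.8 ± 1.66). In KO the first was *Rrm2* (71.1 ± 21.6 TPM), then *Orc6* (28.1 ± 6.12) and *Pcna* (25.2 ± 2.92), again within their spread, and *Pold2* came sixth (15.8 ± 1.35). *Cdc6* and *Orc1* were the scarcest in both genotypes, at 0.191 and 0.117 TPM in WT and 0.513 and 0.234 TPM in KO. The 48 genes summed to 330, 383 and 414 TPM in KO1, KO2 and KO3 and to 281, 291 and 258 TPM in WT1, WT2 and WT3, without overlap. With *Rrm2* left out the sums were 241, 336 and 336 TPM in KO and 257, 273 and 237 TPM in WT, so that KO1 lay within the WT range. TPM was not level across libraries over the tested genes. All tested genes summed to 637360, 549600 and 763570 TPM in KO1, KO2 and KO3 and to 604050 to 681570 TPM in WT. The sums over the 48 were not corrected for this, so the order of KO2 and KO3 in them is uncertain.

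**Figure D4:**
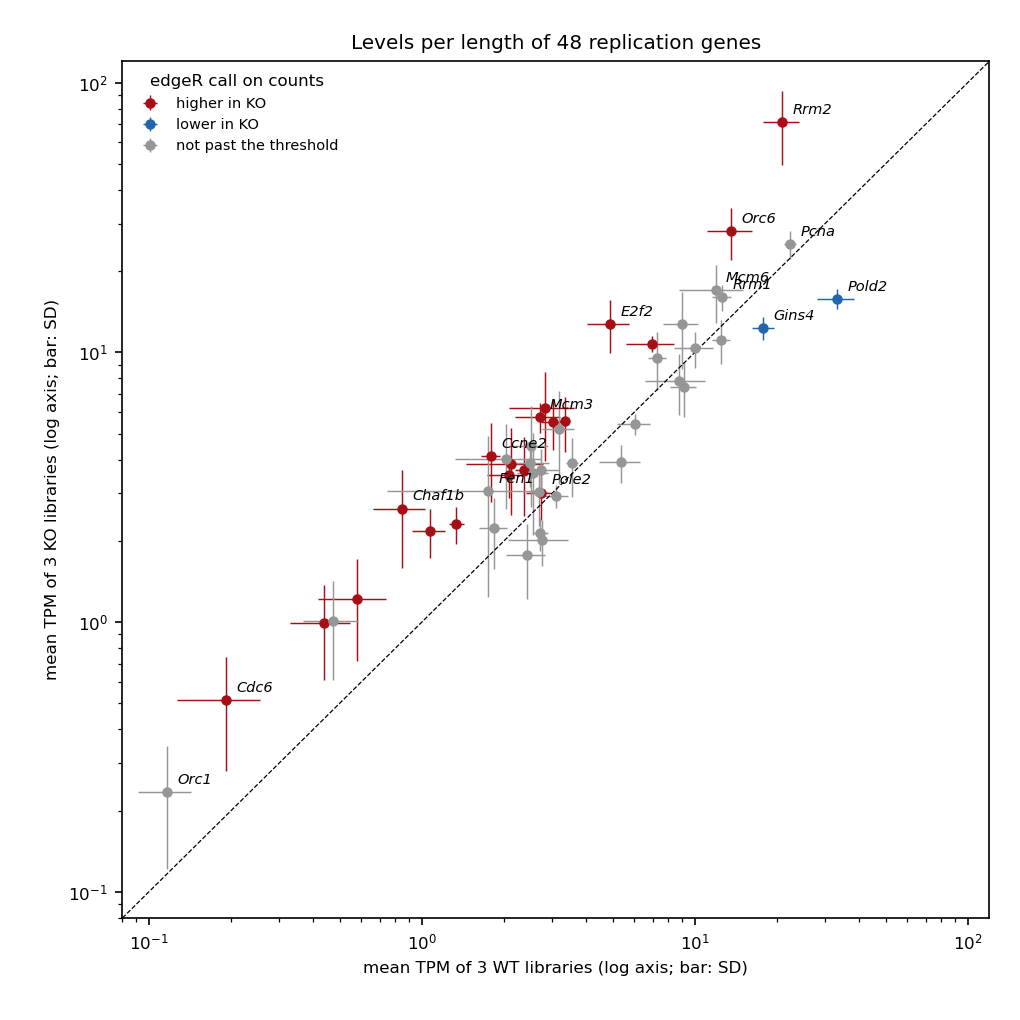
Each point is 1 of the 48 genes, its mean TPM of the 3 KO libraries against that of the 3 WT libraries on log axes, with bars of 1 SD and the dashed line of equal levels. *Rrm2* lies farthest above the line at high abundance, and *Pold2* and *Gins4* lie below it.

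In TPM, 43 of the 48 genes were tested, with *Cdc6*, *Gins2*, *Pole*, *Orc1* and *Mcm10* too low. The median difference of the 43 was 0.42 with limma on log2(TPM + 1), a scale that understates the change of low genes, beside 0.55 for the same genes from counts. Of the 43, 12 were called higher and 2 lower in TPM, and 16 higher and 2 lower in counts. Over all genes, 2394 were called in either direction in log2(TPM + 1) and 3361 in counts. By direction, 12.1% of all tested genes were called higher and 10.6% lower in counts, and the shares in TPM are not given here. The signed difference was lower in log2(TPM + 1) than in counts for 29 of the 43, and in log2(TPM + 0.1) for 33. Among the 32 of the 48 that share no exon bases with another gene, chosen as a set after the data had been seen, the median from counts was 0.49. Of these 32, 11 rose and 2 fell (34.4% and 6.25%, beside 12.1% and 10.6% of all tested genes).

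**Figure D5:**
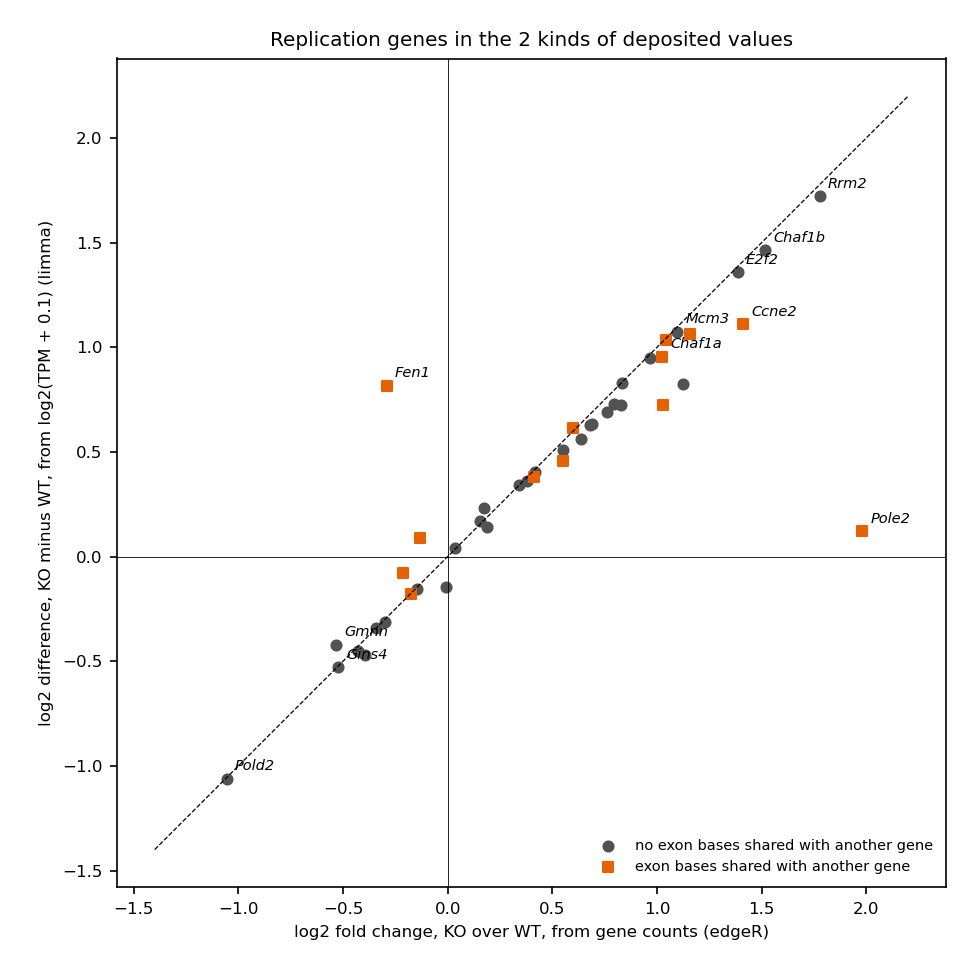
For each gene with a value in both, the log2 fold change from counts (edgeR) is on the x axis and the difference in log2(TPM + 0.1) (limma) on the y axis, with genes that share exon bases with another gene as squares and the dashed line of equal values. Of the points, 33 lie below the line, *Pole2* lies far below it at 1.98 in counts and *Fen1* far above it.

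Genes of the same pathway outside the 48 were read from 3 further lists. Of 44 other replication and fork genes, 11 rose (25.0%, beside 12.1% of all tested genes) and 1 fell (2.27%, beside 10.6%). The 44 had a median log2 fold change of 0.39. Among the rises were those of *Exo1*, a nuclease of repair and replication (2.15, 4.35 and 3.08 CPM in KO, 0.665, 1.04 and 1.35 CPM in WT, 1.65, edgeR adjusted p = 0.0229) and *Dscc1*, of an alternative clamp loader (1.57, 0.0347). *Timeless*, of the fork protection complex, passed narrowly (1.13, 0.0498). The fall was that of *Rnaseh2c*, a subunit of the nuclease that removes RNA from DNA (−1.07, 0.0477), named after its value had been seen. Without WT1, 0 of the 44 rose in the edgeR test, with 12 at an unadjusted p under 0.05, and without KO1 17 rose.

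Regulators of E2F and of cyclin-dependent kinases moved both ways, with 4 of 29 higher (13.8%, beside 12.1% of all tested genes), 6 lower (20.7%, beside 10.6%) and a median of −0.075, which turned to 0.043 when counts were scaled by library totals. Of the cyclins D of G1, *Ccnd2* fell from 39.1, 118 and 47.9 CPM in WT to 21.6, 2.91 and 3.15 CPM in KO (−2.90, edgeR adjusted p = 0.0420), and *Ccnd1* rose from 17.6, 21.5 and 13.4 CPM in WT to 28.8, 49.3 and 43.5 CPM in KO (1.21, 0.0138). *Ccnd3*, named after its values had been seen, fell from 175, 182 and 171 CPM in WT to 119, 77.1 and 56.9 CPM in KO (−1.06, edgeR adjusted p = 0.0218). Of the kinase inhibitors, *Cdkn1b*, which encodes p27, had 99.8, 122 and 97.5 CPM in KO and 285, 177 and 239 CPM in WT and fell (−1.13, edgeR adjusted p = 0.00812), whereas *Cdkn1c*, which encodes p57, had 42.5, 217 and 116 CPM in KO and 28.6, 39.5 and 41.3 CPM in WT and rose (1.78, 0.0397). *Cdkn1a*, which encodes p21, did not pass, with 604, 352 and 285 CPM in KO and 790.1, 547 and 739.8 CPM in WT (−0.74, edgeR adjusted p = 0.104), and neither did *Cdkn2c*, which encodes p18 (−0.11, 0.720), both named after their values had been seen. *Rb1*, the retinoblastoma gene whose product restrains E2F, was singled out after its values had been seen, with 145, 148 and 123 CPM in KO and 252, 219.9 and 249 CPM in WT (−0.79, edgeR adjusted p = 0.00762). Of its relatives, *Rbl1*, which encodes p107, rose (0.63, edgeR adjusted p = 0.0258) and *Rbl2* did not pass (−0.08, 0.687). *Cdc25a*, a phosphatase that activates cyclin-dependent kinases for S phase, fell, with 10.9, 8.50 and 11.8 CPM in KO and 25.3, 23.3 and 19.2 CPM in WT (−1.12, edgeR adjusted p = 0.00695), a call that held under all 14 alternatives. These 3 were also named after their values had been seen. Without WT1, 0 of the 29 rose in the edgeR test, with 4 at an unadjusted p under 0.05, and 3 fell.

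Genes of mitosis, which follows S phase in a cycling cell, also differed among the KO libraries. Of 24 tested, 1 rose (4.17%, beside 12.1% of all tested genes). It was *Mybl2*, a MYB factor of late G1 and S phase (1.60, edgeR adjusted p = 0.0271). The 24 had a median of 0.27. That median was 0.077 without KO2, 0.16 without KO3 and 0.53 without KO1. None fell, beside 10.6% of all tested genes, and none did at an unadjusted p under 0.05 or with DESeq2 (0 of 24 each). Without WT1 *Mybl2* did not pass either. KO1 was the lowest KO library for all 24 and the lowest of all 6 libraries for 18 of them. The medians were −0.46 in KO1, 0.61 in KO2 and 0.49 in KO3, so KO1 lay below WT for mitosis genes while it lay above WT for the replication genes, at 0.20. In log2(TPM + 1) the median of the 48 in KO1 was 0.078, beside −0.0062 to 0.054 in the WT libraries, and KO1 was the lowest of the 6 libraries for 15 of the 48. In TPM, KO1 was the lowest KO library for 23 of the 24, all but *Ube2c*, an enzyme of ubiquitin transfer in mitosis, at 226, 115 and 85.5 TPM in KO and 205, 147 and 188 TPM in WT. The TPM sum of the 24 was highest in KO1 among the KO libraries (299.5, 274 and 255 TPM, with 254 to 308 in WT), and without *Ube2c* lowest there (73.2, 159 and 169 TPM, with 99.8 to 120 in WT). These sums were not corrected for the unequal TPM totals of all tested genes (637360, 549600 and 763570 in KO1, KO2 and KO3). The order of KO1 and KO2 in the sum with *Ube2c* is therefore uncertain. Without KO1, 10 of the 24 passed the test as higher. Over all genes, 4712 were then called in either direction, against 3361 with all 6 libraries.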

How the data were processed

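The measurement was bulk RNA-sequencing after rRNA depletion, in 3 KO and 3 WT libraries of differentiated C2C12 cells. The submitters' processing notes name FastQC, Trim Galore, STAR, featureCounts, StringTie and Salmon. The deposited gene counts are whole reads per gene without normalization, and the authors' StringTie tables give TPM. The labels name the build mm9 and the methods GRCm39, whereas the deposited coordinates fit GRCm38, of which 83.2% of 45137 shared genes are identical to GENCODE M21. Counter version and use of strand are not given in the sources used here.

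Counts were scaled with TMM, filtered with filterByExpr and tested two-sided with edgeR 4.0.16 in R 4.3.3 (quasi-likelihood test, genotype alone, Benjamini-Hochberg over 14828 genes, threshold 0.05). The step was tested on simulated data with no library set apart, unlike KO1 here, and no call rests on that test. DESeq2 1.42.0, limma 3.58.1 on TPM (2 pseudocounts) and 11 other settings served as alternatives. Replicates are separate libraries, which may share a source, so p-values measure the spread between these libraries. The genes and lists were chosen with earlier results of these data known, and lists were described by counts and medians without a test of the list. All 48 genes may be named; values per library were to be given for up to 3 called genes a role and for the gene of largest change and of largest TPM. *Orc1*, *Fen1* and further genes of the E2F and kinase list were given such values after theirs had been seen. A gene outside the 48 that this rule names is not reported here.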

Additional observations from a re-analysis of the deposited data

How the results depend on the processing

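With 3 libraries a genotype, 1 library decided many calls. Members called higher numbered 19, and 12 with limma on TPM (pseudocount 1 or 0.1), 14 with regional medians removed, 17 with the replicate block (which dropped *E2f1*, *Pola1* and *Prim1* and added *Mcm5*) and 6 to 29 when 1 library was left out (6 without WT1, 29 without KO1). Members called lower numbered 2, and 1 with library totals, the replicate block or the regional offset, and 1 to 2 with 1 library left out. Other alternatives gave 19 to 25 higher. The members' median stayed between 0.42 and 0.74. All genes called ranged from 933 (without WT1) to 4712 (without KO1). Library totals moved the median of all genes by 0.12. The replicate numbers did not pair the libraries (correlations 0.14, −0.12 and 0.0041 for same-numbered pairs), and of the KO libraries only KO1 correlated best with its own number. Other replication genes called higher numbered 11, but 7 with the replicate block, 1 and 1 with TPM, 6 with the regional offset and 0 to 17 with 1 library left out; called lower, 0 under library totals, the block and the offset, and 0 to 1 with 1 left out; their median was 0.21 in log2(TPM + 1). E2F and kinase regulators called higher were 1 and 1 with TPM and 0 to 6 with 1 left out. Those called lower were 9 with DESeq2 and 3 to 8 with 1 left out. The median of this list turned to 0.043 under library totals and lay at −0.29 with the regional offset. With 1 left out it ran from −0.17 to 0.0011 (without WT1). The median of the mitosis genes ran from 0.077 (without KO2) to 0.53 (without KO1). Mitosis genes called higher were 2 with DESeq2 or the block, 3 without a filter, 0 with TPM or the offset and 0 to 10 with 1 left out. The sign turned for uncalled members: *Rpa1* 0.054 and *Pola2* 0.12 with the regional offset; *Pola2* 0.10 with library totals, 0.15 without KO3 and 0.074 without WT1; *Rfc4* 0.076 and 0.088 and *Fen1* 0.55 and 0.82 with TPM; and, with 1 library left out, *Fen1* from −0.61 to 0.24 (0.028 without KO3), *Gins1* from −0.067 (without KO2) to 0.32, *Rpa3* from −0.093 (without KO2) to 0.12, *Mcm2* from −0.33 to 0.019 (without WT2) and *Pola2* from −0.12 to 0.15. The cause was not tested. Promoters with 1 of 2 strings (TTTGGCGC or TTTCCCGC) were 27.1%. Low counts limit *Orc1*, *Fen1*, *Gins2* and *Cdc6*.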
